A study of Homo sapiens with 12 samples.

Results

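GDF15, FGF21, SPX, VGF, ADM2, and STC2 encode 6 secreted factors, most of them hormones or hormone precursors, and were followed here through every library of an RNA-seq experiment on stressed HCT116 cells. They are 6 of the 60708 genes in the count tables and were chosen by their measured changes in these same libraries, so their changes with stress are given as a description without a test. HCT116 is a human colorectal carcinoma cell line, and the cells carried no engineered allele (genotype WT). For 24 h, cells received oligomycin A (OA), which blocks the mitochondrial ATP synthase, or tunicamycin (TN), which blocks protein N-glycosylation and loads the endoplasmic reticulum (ER) with unfolded proteins, each at 5 µg/mL by the sample labels. The methods of the study give a higher dose for OA. For OA as for TN, 3 biological replicates by the labels were set against 3 that received DMSO alone, giving 12 libraries from 1 cell line.

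Cells answer mitochondrial and ER stress through the integrated stress response, in which phosphorylation of the translation initiation factor eIF2 slows protein synthesis while the transcription factor ATF4 is made and switches on its target genes. GDF15 and FGF21 are the best known hormones under this control and carry the stress signal from the affected tissue to the brain, where GDF15 lowers food intake. The other genes of the set have related roles outside the cell. SPX (spexin) is a peptide of the galanin group, VGF is a granin-like precursor of neuroendocrine peptides, ADM2 (intermedin) belongs to the calcitonin family, and STC2 (stanniocalcin 2) is a glycoprotein that blocks the protease PAPPA and thereby the release of insulin-like growth factors.

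The 12 libraries held 9884124 to 24983573 counts, and levels are given as CPM, the count of a gene scaled to a common library total, after TMM correction for library composition. The noncoding RNA RN7SL1 took 6.02% to 17.9% of a library, with the highest shares in OA replicate 2 and TN replicate 1. Pairs of libraries were compared by a chi-square per gene, higher the more their counts differ. It was 6.25 for TN replicates 2 and 3, against 111 and 104 for TN replicate 1 with each. For the DMSO libraries of TN it was 7.34 for replicates 2 and 3, against 71.0 and 73.7 with replicate 1. Whether replicates 2 and 3 of the TN set are as independent as n = 3 takes them to be was not tested. The summed level of 8 colorectal epithelial markers lay between 4079 and 8073 CPM, although CEACAM5 was at 0 in every library and VIL1 at or under 3 counts, the floor used here. Among them, CDH1 was higher with OA (log2 fold change 1.81, adjusted p = 0.0271) and TN (1.69, adjusted p = 0.00677, edgeR quasi-likelihood test, threshold 0.05). Its OA call was lost without any 1 DMSO library or OA replicate 3, and its TN call without DMSO replicate 2 or 3. CDX2 had -0.76 with OA and -0.42 with TN (adjusted p = 0.164 and 0.507, same test). The keratin gene KRT18 was past the threshold with TN in a fit with a block for the replicate number (adjusted p = 0.0225 against 0.235 without the block, edgeR). Of 8 enteroendocrine markers, the normal gut source of peptide hormones, 5 were at 0 in every library, NEUROG3, SCGN, GCG, and SST included, and the summed level ran from 6.84 to 10.5 CPM without a gap between groups. The sum over 7 markers of blood, stromal, and endothelial cells lay at 1.65 to 2.57 CPM with DMSO in the OA set and at 5.45 to 12.5 CPM with OA, mostly COL1A1, with no such difference for TN (2.03 to 4.38 CPM with DMSO and 1.87 to 4.17 CPM with TN). Its part in the results was not tested. In bulk RNA, more cells that express a gene and more RNA per cell cannot be told apart.

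Promoters of the 6 genes were read from RefSeq (GRCh38.p14), 250 bases before to 50 bases after the start site, and all 6 genes matched. The windows were searched on both strands for the C/EBP-ATF element core TGATGNAA, the cyclic AMP response element TGACGTCA, which reads the same on both strands, the unfolded protein response element core TGACGTGG, and the ER stress response element, in which CCAAT and CCACG stand 9 bases apart. FGF21 and VGF held 1 match each, whereas GDF15, SPX, ADM2, and STC2 held none. The FGF21 window (chr19:48755274-48755573, plus strand) and the VGF window (chr7:101165520-101165819, minus strand) are shown because they hold the matches, and the GDF15 window (chr19:18385908-18386207, plus strand) because GDF15 had the highest level of the set, each 5′ to 3′ with the match in capitals.
FGF21: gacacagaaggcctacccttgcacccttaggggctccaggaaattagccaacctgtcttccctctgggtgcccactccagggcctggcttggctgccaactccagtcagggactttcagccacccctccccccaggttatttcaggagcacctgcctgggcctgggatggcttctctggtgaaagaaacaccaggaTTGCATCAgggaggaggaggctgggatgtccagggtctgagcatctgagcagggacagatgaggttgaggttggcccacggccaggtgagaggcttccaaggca
VGF: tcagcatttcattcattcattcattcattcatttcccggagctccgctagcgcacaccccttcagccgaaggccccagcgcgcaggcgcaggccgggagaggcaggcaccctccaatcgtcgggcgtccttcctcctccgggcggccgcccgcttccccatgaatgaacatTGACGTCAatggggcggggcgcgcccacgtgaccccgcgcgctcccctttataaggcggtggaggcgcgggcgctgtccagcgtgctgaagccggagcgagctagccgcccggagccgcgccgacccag
GDF15: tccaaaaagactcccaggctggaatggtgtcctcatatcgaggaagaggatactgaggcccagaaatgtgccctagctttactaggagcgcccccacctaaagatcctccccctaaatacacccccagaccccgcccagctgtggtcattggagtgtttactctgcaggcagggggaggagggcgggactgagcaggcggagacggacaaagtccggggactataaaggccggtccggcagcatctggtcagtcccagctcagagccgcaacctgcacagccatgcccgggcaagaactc
The capitals in FGF21 are the C/EBP-ATF core read on the minus strand, with their first base 54 bases before the start site, and those in VGF are the cyclic AMP response element, with its first base 79 bases before it. Among all 35116 promoter windows of this length, 3.62% held TGATGNAA, 1.85% held TGACGTCA, 0.729% held TGACGTGG, and 0.0769% held the ER stress response element. A match describes the letters and is no evidence of binding, and the lack of one says only that these letters are not in the window.

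GDF15 had by far the most RNA of the set and was 11.5-fold higher with OA and 9.33-fold higher with TN than with DMSO. The gene (ENSG00000130513.6) lies at chr19:18374731-18389176 on the plus strand (hg38, GENCODE annotation) and encodes a distant member of the TGF-β superfamily. Its level was 81.1, 67.8, and 93.0 CPM in the DMSO libraries of OA and 975, 772, and 987 CPM in the OA libraries. It was 65.4, 86.8, and 73.7 CPM in the DMSO libraries of TN and 614, 771, and 667 CPM in the TN libraries. The replicates were tight and far apart from DMSO, with the lowest OA library 8.30 times and the lowest TN library 7.07 times the highest DMSO library of the set. The log2 fold change was 3.52 ± 0.25 (SE, n = 3) with OA and 3.22 ± 0.21 (SE, n = 3) with TN. By log2 fold change, GDF15 stood at rank 60 of 14681 tested genes with OA and at rank 49 of 14432 with TN. Set per kilobase of exon, the scale on which genes can be compared, the mean level with OA was 437 for GDF15, 44.1 for STC2, 25.5 for VGF, 2.08 for ADM2, 1.79 for SPX, and 0.505 CPM per kilobase for FGF21.

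**Figure D1:**
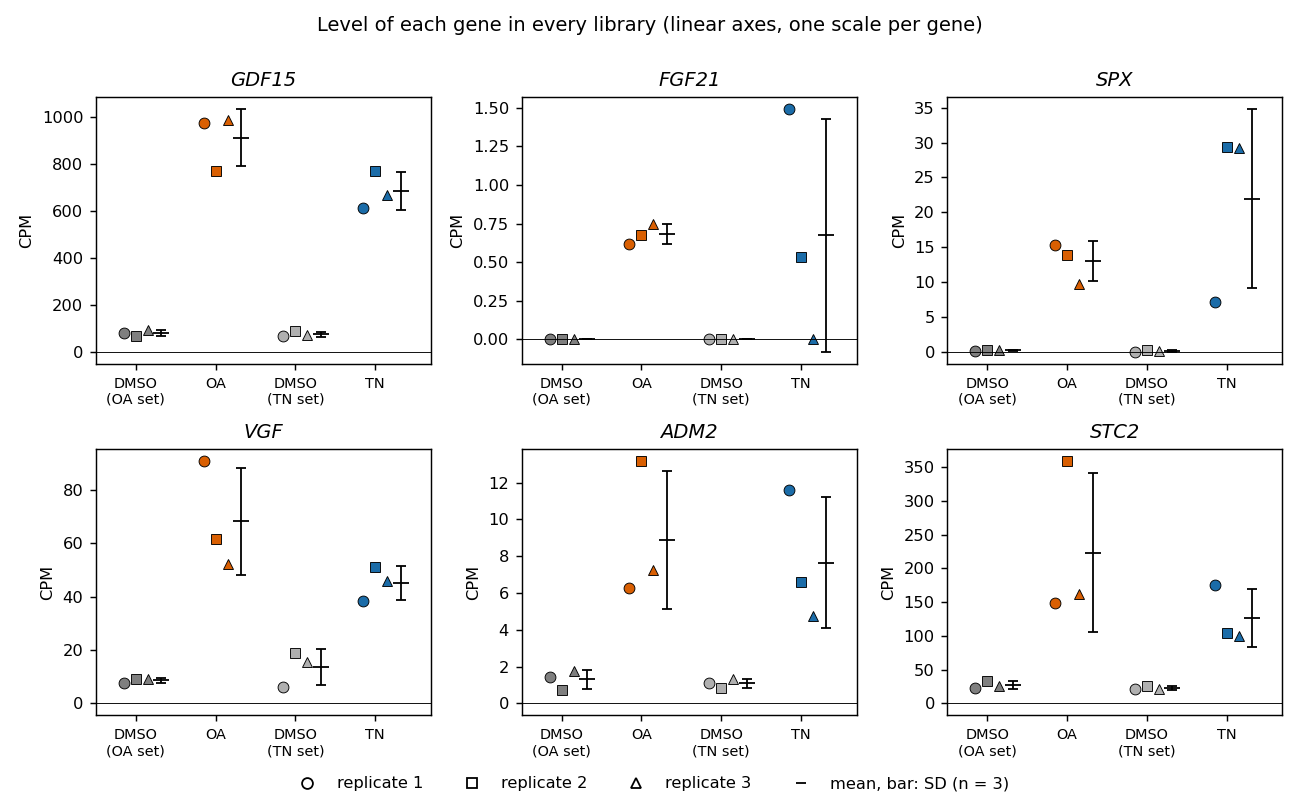
Level of the 6 genes in every library, in CPM on a linear axis with a scale of its own for each gene. Points are libraries (circle, square, and triangle for replicates 1, 2, and 3), bars are the mean ± SD of 3 libraries, and all treated libraries lie above the DMSO libraries of their set except FGF21 in TN replicate 3, which is at 0.

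FGF21, the hormone that shares the stress pathway with GDF15, was barely transcribed in these cells. The gene (ENSG00000105550.10, chr19:48755524-48758333, plus strand) had 0 counts in all 6 DMSO libraries, 8, 7, and 7 counts in the OA libraries, and 15, 6, and 0 counts in the TN libraries. Every OA library was thus above DMSO, whereas the TN libraries overlapped with it because replicate 3 had no count. With the DMSO libraries set to the floor of 3 counts each, the mean OA level was at least 4.61-fold higher and the mean TN level at least 3.69-fold higher, and the latter bound ran from 1.46 without TN replicate 1 to 5.53 without TN replicate 3. Such counts did not pass the filter of edgeR, so that FGF21 has no fitted change in the values given here. In the fit without that filter it was past the threshold with OA and not with TN, and it passed the filter without OA replicate 2 but not the threshold, with fitted folds that rest on the prior count. A count of 0 in a single library allows up to 3, so a lack of FGF21 RNA in TN replicate 3 was not detectable at this depth.

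SPX was close to the floor with DMSO and had the steepest change of the 5 fitted genes with both stressors. The gene (ENSG00000134548.11, chr12:21526296-21541249, plus strand) gave 3, 6, and 4 counts with DMSO in the OA set against 198, 143, and 91 counts with OA. It had 0, 5, and 1 counts in the DMSO libraries of TN and 72, 331, and 353 counts in the TN libraries. On the CPM scale this was 15.3, 13.9, and 9.73 with OA and 7.15, 29.4, and 29.3 with TN, so TN replicate 1 was far below the other TN libraries and below every OA library. The log2 fold change was 5.93 ± 0.42 (SE, n = 3) with OA, rank 12 of the tested genes, and 7.45 ± 0.92 (SE, n = 3) with TN, rank 2. The TN value rests on few DMSO counts and went from 6.88 to 9.12 when single libraries were left out, the highest without DMSO replicate 2. The ratio of the pooled counts over the library sizes, which needs no fitted prior, was 62.9 with a 95% interval of 36.4 to 119 for OA and 189 with 86.6 to 517 for TN, where the intervals cover counting error only. The genes on the opposite strand at this locus, GYS2 and an unnamed gene, share exon bases with SPX but had 1 and 8 counts over all libraries.

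VGF, whose product is cut into several neuroendocrine peptides, was 8.02-fold higher with OA and 3.42-fold higher with TN. The gene (ENSG00000128564.7) lies at chr7:101162509-101165569 on the minus strand. Its level was 7.55, 9.16, and 9.27 CPM in the DMSO libraries of OA and 91.0, 61.5, and 52.4 CPM in the OA libraries. It was 6.03, 19.0, and 15.6 CPM in the DMSO libraries of TN and 38.3, 51.2, and 45.8 CPM in the TN libraries. No treated library overlapped with the DMSO libraries of its set, but the lowest TN library was only 2.01 times the highest DMSO library of its set, against 5.65 times for OA. The log2 fold change was 3.00 ± 0.30 (SE, n = 3) with OA and 1.78 ± 0.41 (SE, n = 3) with TN, ranks 103 and 331. Both the lower treated level and the higher DMSO level of the TN set, 13.6 ± 6.74 against 8.66 ± 0.962 CPM (SD, n = 3 each), entered this gap.

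ADM2, a vasodilator peptide that acts through the receptor of the calcitonin family, stayed low but was 6.99-fold higher with OA and 7.17-fold higher with TN. Its gene (ENSG00000128165.9) lies at chr22:50481543-50486440 on the plus strand. The level was 1.41, 0.743, and 1.78 CPM in the DMSO libraries of OA and 6.25, 13.2, and 7.27 CPM in the OA libraries. It was 1.12, 0.848, and 1.31 CPM in the DMSO libraries of TN and 11.6, 6.58, and 4.73 CPM in the TN libraries. No treated library overlapped with the DMSO libraries of its set, and a single library of each stressor, OA replicate 2 and TN replicate 1, stood above the rest. The log2 fold change was 2.81 ± 0.49 (SE, n = 3) with OA and 2.84 ± 0.44 (SE, n = 3) with TN. ADM2 shares 131 exon bases with SBF1 on the opposite strand, and which strand of the counts was kept is not stated. SBF1 was far more abundant, at 76.2 ± 19.6 CPM with DMSO and 94.3 ± 36.9 CPM with OA (SD, n = 3) and at means of 61.7 CPM with DMSO and 59.2 CPM with TN, with log2 fold changes of 0.35 and -0.019 (adjusted p = 0.577 and 0.978, edgeR quasi-likelihood test, Benjamini-Hochberg adjustment). Its part in the ADM2 counts was not tested.

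STC2, the inhibitor of PAPPA, had the second highest level and a similar pattern of libraries. The gene (ENSG00000113739.11) lies at chr5:173314723-173328447 on the minus strand. Its level was 22.3, 33.3, and 26.2 CPM in the DMSO libraries of OA and 149, 360, and 162 CPM in the OA libraries. It was 20.6, 25.8, and 21.4 CPM in the DMSO libraries of TN and 176, 104, and 100 CPM in the TN libraries. Again no treated library overlapped with DMSO, and OA replicate 2 and TN replicate 1 were the highest. The log2 fold change was 3.08 ± 0.42 (SE, n = 3) with OA and 2.53 ± 0.29 (SE, n = 3) with TN, and the OA value was 2.50 without OA replicate 2. The target protease PAPPA had 0 counts in every library.

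**Figure D2:**
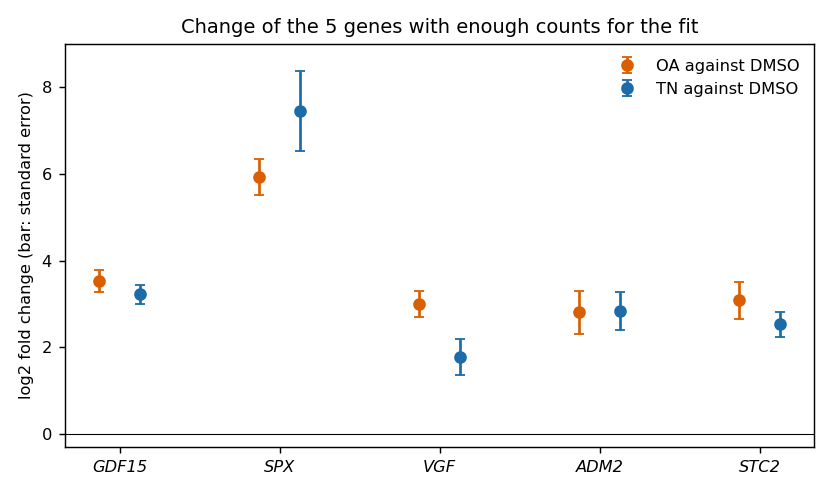
Log2 fold change of treated against DMSO libraries for the 5 genes that passed the filter, with OA in orange and TN in blue and bars for the standard error (n = 3 per group). SPX has the largest change with both stressors, at 5.93 and 7.45, and VGF with TN the smallest, at 1.78.

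All 5 genes that could be fitted were past the threshold in the higher direction with both stressors, where 2.76% of all tested genes were higher and 1.72% lower with OA, and 3.65% higher and 3.34% lower with TN. Since the genes were picked on these contrasts, nothing is read from that. Leaving out any 1 DMSO library of OA left 2 of the 5 past the threshold with OA, GDF15 and SPX. With TN, 3 were left without DMSO replicate 2 and 2, GDF15 and STC2, without DMSO replicate 3. The same holds for the lack of overlap: every treated library was above every DMSO library for all 6 genes with OA and for 5 of 6 with TN, against 15.9% and 14.9% of all tested genes. The response to TN minus the response to OA was -0.23 on the log2 scale for GDF15 (SE 0.29, 95% interval -0.86 to 0.40), 1.64 for SPX (SE 1.11, -0.77 to 4.05), and 0.10 for ADM2 (SE 0.59, -1.18 to 1.39). For STC2 it was -0.46 (SE 0.46, -1.47 to 0.55), and for VGF it was -1.14 (SE 0.51, -2.26 to -0.023). These intervals cover the spread between replicates, are not adjusted for the number of genes, and are no test, since the genes were chosen on both parts of the difference. Single libraries moved some of them: SPX went to 3.20 without DMSO replicate 2 of TN, STC2 to 0.035 without OA replicate 2, and ADM2 ran from -0.41 without TN replicate 1 to 0.47 without OA replicate 2. In the order of mean levels, OA stood above TN for GDF15 and VGF, but the lowest OA library was only 1.001 and 1.02 times the highest TN library. The treated groups of both genes overlapped with total-count scaling (0.691 and 0.829) and with DESeq2 size factors (0.980 and 0.979), settings chosen after seeing the data. They also overlapped for SPX, ADM2, STC2, and FGF21, although not for STC2 with total-count scaling, and the DMSO groups overlapped for every gene of the set.

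The DMSO cultures of OA and TN, whose levels both entered the choice of genes, differed by -0.13 ± 0.20 (SE) for GDF15, -0.81 ± 0.96 for SPX, 0.59 ± 0.37 for VGF, -0.28 ± 0.44 for ADM2, and -0.31 ± 0.33 for STC2 on the log2 scale, TN set minus OA set, given as a description without a test. Of all 15429 tested genes, edgeR called 0 between the DMSO sets (0%), with 382 at an unadjusted p under 0.05, and DESeq2 called 25.

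Within a group, the 6 genes did not vary together. GDF15, SPX, and VGF were lowest in TN replicate 1 of the TN libraries, whereas ADM2, STC2, and FGF21 were highest in that same library. In log2 CPM, TN replicate 1 was 1.34 below the TN mean for SPX and 0.69 and 0.52 above it for ADM2 and STC2. Among the OA libraries, replicate 2 was 0.64 above the mean for ADM2 and 0.81 for STC2, but 0.23 below it for GDF15. TN replicate 1 and OA replicate 2 are also the libraries with the highest RN7SL1 share of their groups, 13.3% and 17.9%, and whether this has a part in the split was not tested. Over the 12 deviations from group means, Pearson's r was 0.68 for SPX and VGF, 0.52 for GDF15 and VGF, 0.46 for GDF15 and SPX, and 0.51 for ADM2 and STC2. It was -0.58 for SPX and ADM2 and -0.56 for GDF15 and STC2. These values are a description, since the points share libraries and depth.

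**Figure D3:**
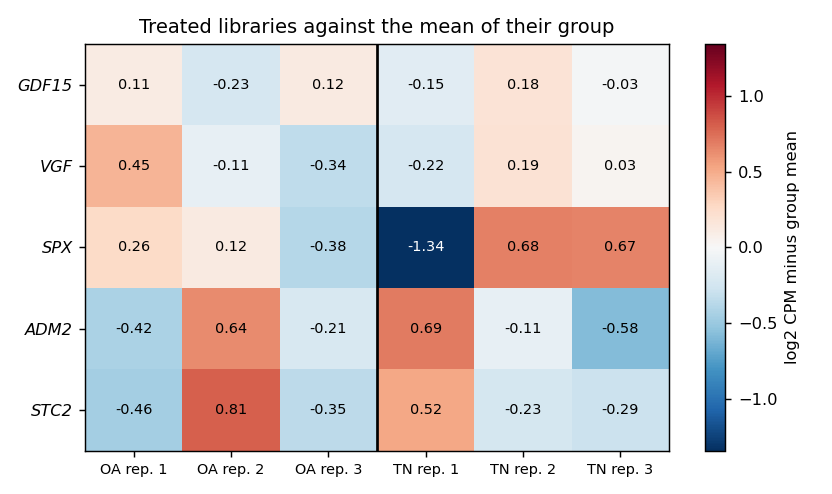
Log2 CPM of each treated library minus the mean of its group, for the 5 genes with enough counts. Red is above and blue below the group mean, and TN replicate 1 is low for GDF15, VGF, and SPX (-1.34) and high for ADM2 (0.69) and STC2 (0.52).

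Over the 12 libraries, the genes whose log2 CPM was most like that of each hormone were ranked by Pearson's r among 8985 genes with a mean of at least 10 CPM. Many genes had an r of at least 0.9: 229 for GDF15, 38 for FGF21, 161 for SPX, 114 for VGF, 295 for ADM2, and 472 for STC2. The genes named are thus the top of long lists. These r values are a description, since the points share libraries and the treatment. Their counterparts over the deviations from group means, with the treatment removed, ran from 0.45 to 0.96 for the genes named here, the highest for STC2 with CEBPB (0.96) and VGF with KLF4 (0.93). For GDF15, the closest genes were PDE2A (r = 0.994), MAP1B (0.994), and SLC25A37 (0.986). PDE2A (0.976) and MAP1B (0.969) also followed SPX, after PTPDC1 (0.984). The VGF pattern was closest to GADD45A (0.967), HERPUD2 (0.965), and KLF4 (0.965), and KLF4 had a level of 5.43, 24.7, 10.9, and 20.5 CPM in the DMSO of OA, OA, the DMSO of TN, and TN. ADM2 was most like SESN2 (0.977), a stress-induced sestrin, followed by PIP5KL1 (0.976) and SPATA20 (0.973), and STC2 was most like SLC16A5 (0.993), the transcription factor CEBPB (0.991), and ARHGEF2 (0.990). The values of FGF21 (LMTK3, 0.965, MT-CO3, 0.947, and MBTPS1, 0.946) rest on sparse counts.

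Several receptors specific to these hormones were at or near 0 in HCT116 cells, whereas the FGF receptors and C1QBP were present, and the 1 past the threshold, FGFR3, fell. Of 17 receptor and coreceptor genes, 8 were tested, 0 were higher (also 0 with DESeq2), and 1 was lower with each stressor (1 with OA and 2 with TN by DESeq2), where 1.72% and 3.34% of all tested genes were lower. They had a median log2 fold change of -0.46 with OA and -0.54 with TN against -0.022 and -0.031 for all tested genes. At an unadjusted p under 0.05, 1 receptor stood with OA and 3 with TN. In every library 6 of the 17 were at or under the floor. C1QBP had 670 CPM and FGFR1 30.2 CPM on average in the DMSO libraries of OA. GFRAL, the receptor of GDF15, had 2 counts in a single DMSO library and 0 in the other 11, and KLB, the coreceptor that FGF21 needs, had 1 count in all. RET, the signalling partner of GFRAL, averaged 4.45 CPM with DMSO and 2.72 CPM with OA, and 4.35 CPM with DMSO and 2.64 CPM with TN, and was not past the threshold with either stressor. FGFR3, one of the FGF receptors, went from 27.3 ± 4.18 to 8.61 ± 4.03 CPM with OA and from 20.8 ± 2.03 to 7.86 ± 1.73 CPM with TN (SD, n = 3). Its log2 fold change was -1.65 ± 0.38 (SE, adjusted p = 0.0495) with OA and -1.36 ± 0.26 (SE, adjusted p = 0.0242) with TN by the edgeR quasi-likelihood test, Benjamini-Hochberg adjustment. The OA call sits at the threshold and was lost under other scalings and without any single library other than OA replicate 2, and the TN call was lost without any single library other than TN replicate 1. With a block for the replicate number, 3 receptors were lower with TN, FGFR1 (adjusted p = 0.0125) and C1QBP (adjusted p = 0.00682), a protein that binds a VGF peptide, besides FGFR3. CALCRL and RAMP1, which form a receptor for ADM2, had log2 fold changes of 0.53 ± 1.11 and -0.81 ± 0.38 (SE) with OA and 1.31 ± 0.81 and 0.18 ± 0.39 (SE) with TN, and did not pass the threshold with either. CALCRL was past it with TN when TN replicate 1, with 8 counts against 137 and 119, was left out.

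Among the family relatives, FGF19 rose and GDF11 fell with both stressors and CALCB rose with TN, whereas ADM, the closest relative of ADM2, did not pass the threshold. Of 29 relatives, 8 were tested with OA, 1 higher and 1 lower, and 11 with TN, 2 higher and 1 lower, where 2.76% of all tested genes were higher and 1.72% lower with OA and 3.65% and 3.34% with TN. The medians were 0.30 and -0.41 against -0.022 and -0.031 for all tested genes, that of OA turning to -0.23 when every library had to hold at least 10 counts, to -0.098 without OA replicate 1, and to -0.00085 without OA replicate 2. FGF19, the intestinal endocrine FGF that limits bile acid synthesis, went from 11.2 ± 2.90 to 132 ± 83.5 CPM with OA and from 10.8 ± 4.08 to 67.4 ± 11.2 CPM with TN (SD, n = 3). Its log2 fold change was 3.61 ± 0.51 (SE, adjusted p = 0.0168) and 2.68 ± 0.32 (SE, adjusted p = 0.00662, edgeR quasi-likelihood test, Benjamini-Hochberg adjustment). The OA value was 2.91 without OA replicate 2, the library with the most FGF19 counts (2353 against 1116 and 760). The growth factor GDF11 was -1.79 ± 0.33 (SE, adjusted p = 0.0303) with OA and -1.58 ± 0.31 (SE, adjusted p = 0.0277) with TN in the same test. The OA calls of FGF19 and GDF11 were lost without any 1 DMSO library, that of GDF11 also without OA replicate 3, and the TN call of GDF11 was lost without any single library other than TN replicate 1. CALCB, which encodes a calcitonin gene-related peptide, had only 4 or 5 counts per DMSO library of OA and 11 to 16 with OA, and it was past the threshold with TN (3.92 ± 0.77, SE, adjusted p = 0.0269 in edgeR's test) and just short of it with OA (2.36 ± 0.55, SE, adjusted p = 0.0531, but 0.0124 with DESeq2 and 0.0439 in 1 edgeR fit of all 12 libraries). Its TN value was 3.32 without DMSO replicate 1, and its TN call was lost without DMSO replicate 2 or 3 and without TN replicate 2 or 3. ADM, encoding adrenomedullin, changed by -0.22 ± 0.25 (SE) with OA and -0.44 ± 0.27 (SE) with TN and was not past the threshold. INHBE, an activin subunit gene known to be induced by ER stress, had 63, 13, and 11 counts with TN. Its DMSO libraries of the TN set held 4, 0, and 0. With OA it had 24, 22, and 1 counts against 2, 0, and 0 with DMSO, and did not pass the filter on low counts. With TN its adjusted p was 0.0555 by the edgeR quasi-likelihood test and 0.00275 with the replicate block. GAL, the galanin gene, had an adjusted p of 0.159 with TN and 0.00672 with that block, at a log2 fold change of -0.96.

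Of 15 convertases and other enzymes that process prohormones, 10 were tested, and edgeR and DESeq2 each called 0 with OA and 0 with TN, with 3 and 1 at an unadjusted p under 0.05 by edgeR. With the shares of all tested genes called (2.76% higher and 1.72% lower with OA, 3.65% and 3.34% with TN), nothing particular to 10 genes is read from these counts. The medians were 0.38 and 0.080 against -0.022 and -0.031 for all tested genes. The TN median turned negative with the replicate block (-0.050), with total-count scaling (-0.14), and with no filter on low counts (-0.0096). It also did so without DMSO replicate 2 (-0.13) or 3 (-0.087) and without TN replicate 1 (-0.081). PCSK1 and PCSK2, the convertases of neuroendocrine granules that process VGF in neurons, had 0 counts in every library. FURIN, the general convertase of the secretory pathway, had 0.72 ± 0.26 (SE, adjusted p = 0.148) with OA by the edgeR quasi-likelihood test. With the replicate block, MBTPS1 was higher with TN (adjusted p = 0.0245).

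Most core genes of the integrated stress response rose with both stressors. Of 16 genes, 14 were tested, and 11 were higher with OA and 10 with TN, with 0 lower, where 2.76% and 3.65% of all tested genes were higher. The median log2 fold change was 3.08 and 2.09 against -0.022 and -0.031 for all tested genes, and that of OA was 2.33 without OA replicate 2. With the replicate block CEBPG was also higher with TN (adjusted p = 0.0614 without the block and 0.000536 with it, edgeR), which made 11. DDIT3, the proapoptotic factor CHOP, had 5.23 ± 0.51 (SE, adjusted p = 0.0100) with OA and 4.33 ± 0.34 (SE, adjusted p = 0.00240) with TN by the edgeR quasi-likelihood test, Benjamini-Hochberg adjustment. DDIT4, an inhibitor of mTORC1, had 4.58 ± 0.32 and 3.68 ± 0.29 (SE), and CHAC1, which degrades glutathione, had 4.31 ± 0.35 and 3.91 ± 0.46 (SE), all past the same threshold. PPP1R15A and ATF3 had 3.54 ± 0.76 and 3.49 ± 0.65 (SE) with OA. With TN they had 0.38 ± 0.46 and 0.96 ± 0.40 (SE, adjusted p = 0.668 and 0.198, same test). Both had the most OA counts in replicate 2 (5967 against 1180 and 903, and 3374 against 977 and 636). DDIT3 with OA was 4.53 without OA replicate 2, and its OA call was lost without any 1 DMSO library, as was that of CHAC1 without DMSO replicate 2 or 3. The OA count fell to 2, 1, and 1 without DMSO replicates 1, 2, and 3 and to 6 without OA replicate 3, and the TN count to 6 without DMSO replicate 2 and 5 without DMSO replicate 3, although all 14 stayed positive each time.

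Of 42 other secreted factors, 26 were tested, and most of these did not pass the threshold with either stressor. The counts were 9 higher and 0 lower for OA (12 and 1 with DESeq2) and 6 higher and 1 lower for TN (10 and 1 with DESeq2), against 2.76% and 1.72% of all tested genes for OA and 3.65% and 3.34% for TN, at medians of 1.22 and 0.87. With the replicate block the TN count was 13 higher and 1 lower. Without DMSO replicate 1, 2, or 3, the OA count was 0, and without OA replicate 3 it was 3. The TN count was 2 and 3 higher without DMSO replicates 2 and 3, 3 and 4 without TN replicates 2 and 3, and 12 without TN replicate 1. VEGFA, the angiogenic growth factor, was past the threshold with both, at 1.92 ± 0.26 (SE, adjusted p = 0.0168) with OA and 1.85 ± 0.30 (SE, adjusted p = 0.0137) with TN by the edgeR quasi-likelihood test, Benjamini-Hochberg adjustment. AREG, an EGF receptor ligand, had 2.37 ± 0.31 (SE, adjusted p = 0.0157) with OA and 1.25 ± 0.38 (SE, adjusted p = 0.0960, 0.000653 with the block) with TN. The chemokine CXCL8 went from 19, 12, and 20 counts to 193, 355, and 94 with OA (4.58 ± 0.61, SE, adjusted p = 0.0157, edgeR, and 3.88 without OA replicate 2), but its DMSO libraries of the TN set held 4, 543, and 473 counts, and the TN value of -0.34 ± 1.20 (SE, adjusted p = 0.899, edgeR) changed sign with the block. MANF and CRELD2, chaperone-like factors of the ER, had 2.36 ± 0.19 and 2.49 ± 0.23 (SE, adjusted p = 0.00260 and 0.00313) with TN and 1.41 ± 0.55 and 0.92 ± 0.54 (SE, adjusted p = 0.172 and 0.344) with OA, by the same test. Without OA replicate 2 the OA values were 0.37 for MANF and -0.061 for CRELD2. KITLG, the ligand of the KIT receptor, was -2.37 ± 0.56 (SE, adjusted p = 0.0484) with TN and -2.34 ± 0.63 (SE, adjusted p = 0.0728) with OA, and its TN call was lost under both other scalings, with the filter of 10 counts, in 1 fit of all 12 libraries, and without any single library other than TN replicate 1. With the replicate block its TN value was -2.46 (adjusted p = 0.000126, edgeR), and DESeq2 called it with both stressors (adjusted p = 0.00246 with OA and 0.000407 with TN). The OA value of KITLG was -1.65 without DMSO replicate 1. With OA it was past the threshold without OA replicate 1 (adjusted p = 0.0398) and in 1 fit of all 12 libraries (0.0471, edgeR). The TN call of VEGFA was lost without DMSO replicate 2 or 3, and its OA call without any 1 DMSO library or OA replicate 3. The difference between the stressors did not pass the threshold for any gene of these lists (adjusted p of 1.00 for CXCL8, edgeR, with an unadjusted value of 0.0103). Lower unadjusted values were those of the stress response genes PPP1R15A (0.00565) and ATF3 (0.00827), also by edgeR.

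**Figure D4:**
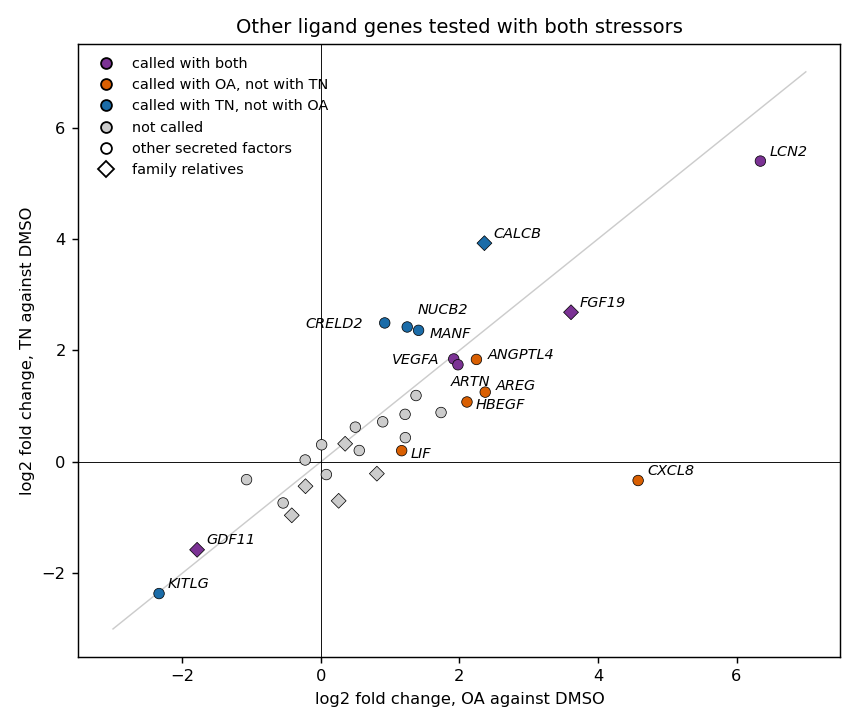
Log2 fold change with OA (horizontal) and TN (vertical) for 32 ligand genes outside the set that were tested with both stressors, as circles for other secreted factors and diamonds for family relatives. Color gives the comparison in which edgeR's adjusted p was under 0.05, the grey line marks equal change, and FGF19 (3.61 and 2.68) lies near it whereas CXCL8 (4.58 with OA) is far below it.

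An intron of GDF15 holds the gene of a microRNA precursor, MIR3189 (ENSG00000264175.1, chr19:18386562-18386634, plus strand), and it was looked at after its values had been seen. Its counts were 34, 58, and 35 with DMSO in the OA set and 145, 78, and 109 with OA. It had 42, 44, and 13 counts in the DMSO libraries of TN and 135, 107, and 60 in the TN libraries. The treated libraries were above DMSO without overlap, and the log2 fold change was 2.34 ± 0.33 (SE, adjusted p = 0.0168) with OA and 2.32 ± 0.50 (SE, adjusted p = 0.0354) with TN by the edgeR quasi-likelihood test, Benjamini-Hochberg adjustment. Over 13 alternatives each, the adjusted p ran from 3.69e-08 to 0.133 (OA) and from 0.000154 to 0.106 (TN), and 9 of 13 were under the threshold for each stressor. The calls were lost without any 1 of the DMSO libraries and without OA replicate 3 or TN replicate 2. As a share of the GDF15 counts, which chose GDF15 and are therefore no base for a test, they were 2.59% ± 0.826 with DMSO and 1.10% ± 0.107 with OA, and 2.53% ± 1.11 with DMSO and 1.39% ± 0.731 with TN (SD, n = 3). The shares did not overlap for OA and overlapped for TN. Mature microRNA, its precursor, and unspliced GDF15 RNA cannot be told apart in these counts.

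**Figure D5:**
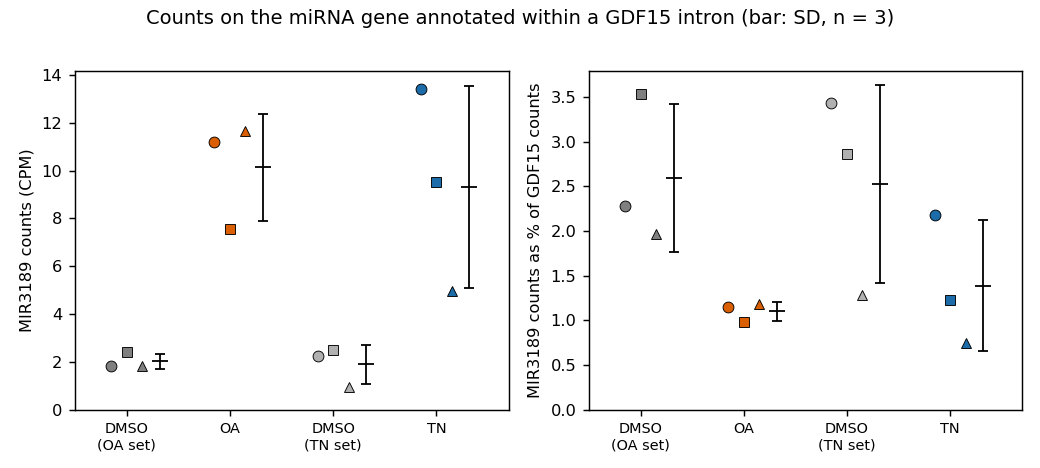
Counts on MIR3189 in CPM (left) and as a percentage of the GDF15 counts of the same library (right), for the 12 libraries with the mean ± SD of each group (symbols mark replicates 1, 2, and 3 as circle, square, and triangle). The level is higher with both stressors, while the mean share is 2.59% with DMSO against 1.10% with OA and 2.53% with DMSO against 1.39% with TN, where the libraries overlap.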

How the data were processed

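RNA from HCT116 cells was sequenced in 12 libraries, with groups and replicate numbers as the labels give them. According to the methods of the study, reads were aligned with STAR (hg38) and counted per GENCODE gene, and the authors deposited these counts without normalization. Which strand was counted is not stated. The tables of the authors' own DESeq2 comparisons (fold changes, errors, and p-values) were not used.

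Here, TMM scaling, the filterByExpr filter, and the two-sided quasi-likelihood test came from edgeR 4.0.16 (R 4.3.3). P-values were adjusted over all genes tested (Benjamini-Hochberg, threshold 0.05), for OA and TN separately and, for differences between stressors or DMSO sets, over all 12 libraries. SE is the log2 fold change over the square root of F. Log2 CPM used a prior count of 2. Depth was 9884124 to 24983573 counts, and the floors (3 counts) and the intervals of count ratios cover counting error only.

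The 6 genes and all gene lists were chosen with earlier results of these data known. Named genes are the 6, up to 3 genes per list, direction, and stressor with the lowest p among those called, partners or relatives of the 6, and the 3 most correlated genes each. Any other gene was named with its values already seen. 1 gene of the lists is counted in them but not reported here by itself. Loci and exon lengths are from GENCODE 44, whereas the authors used GENCODE 32.

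Same-numbered TN and DMSO libraries deviated together from their group means (correlations across genes 0.64, 0.41, and 0.42), so a replicate block is given for TN where it changes a call of a list or of a gene named here. This pairing rests on the shared numbers of the labels and on that check, which does not separate replicates 2 and 3 (DMSO replicate 3 and TN replicate 2, 0.43, and DMSO replicate 2 and TN replicate 3, 0.38). The alternatives were DESeq2 1.42.0, its size factors in edgeR, total-count scaling, the block, a filter of 10 counts in each library or none, 1 fit of all 12 libraries, a prior count of 0.5, and fits without each library. The scripts were tested on simulated data.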

Additional observations from a re-analysis of the deposited data

How the results depend on the processing

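The log2 fold changes of GDF15, SPX, VGF, ADM2, and STC2 with OA and TN were recomputed under 128 alternatives over 10 values, and 126 stayed within 1 SD of the replicates and 0 changed sign. The other 2 were SPX with TN without DMSO replicate 2 (9.12) and STC2 with OA without OA replicate 2 (2.50). The calls of these genes were less stable, from 2 to 5 of the 5 for either stressor without single libraries, and VGF lost its TN call with total-count scaling. The differences between the stressors were recomputed under 89 alternatives over 5 values, and 2 moved by over 1 SD, SPX without TN-set DMSO replicate 2 (3.20) and STC2 without OA replicate 2 (0.035). SPX is limited by depth, with at most 6 counts in a DMSO library.

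The number of genes called depended on the processing far more. For OA it was 658, and it became 1572 without the filter, 1927 with DESeq2, 1681 in 1 fit of all 12 libraries, and 3 to 1179 without single libraries (3 without DMSO replicate 2 or 3, 5 without DMSO replicate 1, 91 without OA replicate 3, and 1179 without OA replicate 1). For TN it was 1009, and it became 1648 without the filter, 2162 with DESeq2, and 151 to 2361 without single libraries (473, 183, and 151 without DMSO replicates 1, 2, and 3, and 2361, 301, and 310 without TN replicates 1, 2, and 3). Between the stressors it was 0, with 348 genes at an unadjusted p under 0.05, and became 25 without the filter, 2 with DESeq2, and 0 to 4 without single libraries (4 without OA replicate 2). Between the DMSO sets it was 0 and became 120 without the filter, 25 with DESeq2, and 0 to 39 without single libraries (39 without TN-set DMSO replicate 1). Total-count scaling shifted the median of all tested genes to -0.23 for OA and -0.18 for TN and the calls to 352 higher and 395 lower for OA, from 405 and 253, and to 529 higher and 875 lower for TN, from 527 and 482. The cause of these shifts was not tested.

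A replicate block gave 3914 calls for OA and 3915 for TN. For OA, the correlations of same-numbered libraries were 0.63, 0.54, and 0.090, and since the last is not over 0.1, the numbers were not taken as pairs. That block called CALCB (adjusted p = 0.0391, edgeR), MANF (0.0388), KITLG (0.000172), FURIN (0.0240), RAMP1 (0.0347), CEBPG (0.00181), MBTPS1 (0.0425), COL1A1 (0.0250), and CDX2 (0.0338) with OA. COL1A1 with OA was also called by DESeq2 and in 1 fit of all 12 libraries. The block raised the OA counts to 15 higher and 1 lower for other secreted factors, 13 higher for the integrated stress response, 2 higher and 1 lower for prohormone processing, 2 higher and 1 lower for family relatives, and 2 lower for receptors. DMSO replicate 3 deviated most like OA replicate 1 (0.15). The block could not be fitted between the DMSO sets. CXCL8 with TN turned from -0.34 to 0.28 with the block and to between -0.87 and 0.22 without single libraries, and CRELD2 with OA from 0.92 to between -0.061 and 1.28 without single libraries, the lowest without OA replicate 2.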
